A study of Oryza sativa Japonica Group with 4 samples.

Results

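Rice takes up nitrate from dilute solutions through the high-affinity transport system, and 3 genes of that system, *NRT2.2*, *NRT2.3* and *NAR2.2*, were read on the arrays described here. They were found by name in the tables that pair probe sets with genes, and all probe sets of each gene were taken, which gave 3 probe sets of 57194 for rice and 3 genes of 17905. Each gene had a single probe set. The gene table lists 5 genes named *NRT2* or *NAR2*. The other 2 of them, *NRT2.1* and *NAR2.1*, are paired with no probe set in the annotation used here and were not analysed. The study itself lists *NAR2.1* among the genes that were higher in +N on these arrays. A wider list of nitrate transport names, with the *NPF*, *PTR*, *CLC* and *SLAC* families, found no further gene by exact symbol or synonym. Only 2459 of the 17905 genes carry a name other than a locus or clone name. Genes of these families may therefore be on the array without being found. The RNA came from roots of seedlings of the japonica rice cultivar TNG67 that were 17 days old. All of them had been germinated in the dark and grown in a hydroponic solution without nitrogen, so that the controls were nitrogen-starved as well. They were then moved for 30 min to a solution that again held no nitrogen (−N, 2 arrays) or to one with 1.43 mM ammonium nitrate (+N, 2 arrays). Each array held the RNA of 1 biological replicate. Whether the replicates were separate cultures is not stated, so p-values cover only the spread of these samples from each other, which may be technical. In RNA of roots, fewer cells of a type and less RNA per cell cannot be told apart.

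Nitrate enters root cells against its gradient together with protons, through membrane proteins of the NRT2 family. Many NRT2 proteins are inactive alone and need a small partner protein of the NAR2 family, which carries no nitrate itself. Nitrate is known to induce genes of both families in roots of several plant species. The supplied salt held both nitrate and ammonium, so these arrays give the response to the combination and not to either ion.

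The authors deposited 1 summarized intensity for each probe set and array, on a linear scale. On the arrays of replicate 1 the median of the rice probe sets lay between 17.1 and 17.8, and on those of replicate 2 between 25.2 and 25.4, so the scale followed the replicate number and not the treatment. Of the root marker list, 9 genes were found in the gene table and 8 of them were measured, with 13 probe sets, and 8 of these probe sets lay above the median of each array. *Lsi1*, a silicon transporter gene of roots, had intensities between 7224 and 9869, whereas *YSL15*, an iron-phytosiderophore transporter gene, lay between 5.81 and 8.18 and *PT11*, a phosphate transporter gene of mycorrhizal roots, between 4.10 and 9.15. Leaf markers were not absent. Of 10 probe sets for 3 measured leaf genes, 9 lay above the median of each array, and *CAB2R*, a gene of a chlorophyll-binding protein, reached 11216. Below, a probe set is said to have risen where limma gave a change of at least 2-fold with an unadjusted p under 0.05, the numbers that the study's methods name. Of all rice probe sets 0.465% rose by this rule and 0.014% fell. After Benjamini-Hochberg adjustment in limma none passed, against 694, or 1.21%, with an unadjusted p under 0.05.

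*NRT2.2*, a transporter gene of the high-affinity system, showed the largest change of the 3 genes. Its probe set Os.49093.2.S1_x_at read 65.9 in replicate 1 and 263 in replicate 2 of −N, and 2116 and 1958 in the same order of +N. Both +N arrays were thus far above both −N arrays, and the +N values lay close together while the −N values were 3.99-fold apart. The log2 mean was 7.04 ± 1.41 (SD, n = 2) in −N and 10.99 ± 0.08 (SD, n = 2) in +N. *NRT2.2* rose 15.4-fold, a log2 fold change of 3.95 ± 0.78 (SE, 95% interval from 1.60 to 6.30, unadjusted p = 0.0114 and adjusted p = 1 by limma). It ranked 11 among the increases of all 57194 probe sets. The fold was 32.1 within replicate 1 and 7.44 within replicate 2.

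The suffix x of this probe set marks a design in which some probes can also bind other transcripts. In the gene table *NRT2.1* stands next to *NRT2.2* with 0 annotated genes between them, and the coding sequences of both are known to be nearly the same, so the signal cannot be assigned to *NRT2.2* alone. The array holds 2 further probe sets with the cluster number Os.49093. The annotation used here pairs them with no gene, and they are given by their identifiers only.

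Os.49093.1.S1_a_at had intensities of 131 and 671 in −N and of 3746 and 4840 in +N. It rose 14.4-fold, a log2 fold change of 3.85 ± 0.93 (SE, unadjusted p = 0.0206 by limma), 28.6-fold in replicate 1 and 7.21-fold in replicate 2. These folds lie close to those of the *NRT2.2* probe set in each replicate. Os.49093.1.S1_at had 10.1 and 231 in −N and 814 and 1354 in +N. Its groups did not overlap either, but its log2 fold change of 4.44 ± 1.77 (SE, unadjusted p = 0.0779 by limma) did not pass, since the −N arrays were 23.0-fold apart. The lower −N value is under the median of its array, so that the 80.9-fold difference in replicate 1 rests on a dim spot, and in replicate 2 the difference was 5.86-fold. All 3 probe sets of the cluster were higher in +N in both replicates, and in all of them the change was larger in replicate 1.

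**Figure D1:**
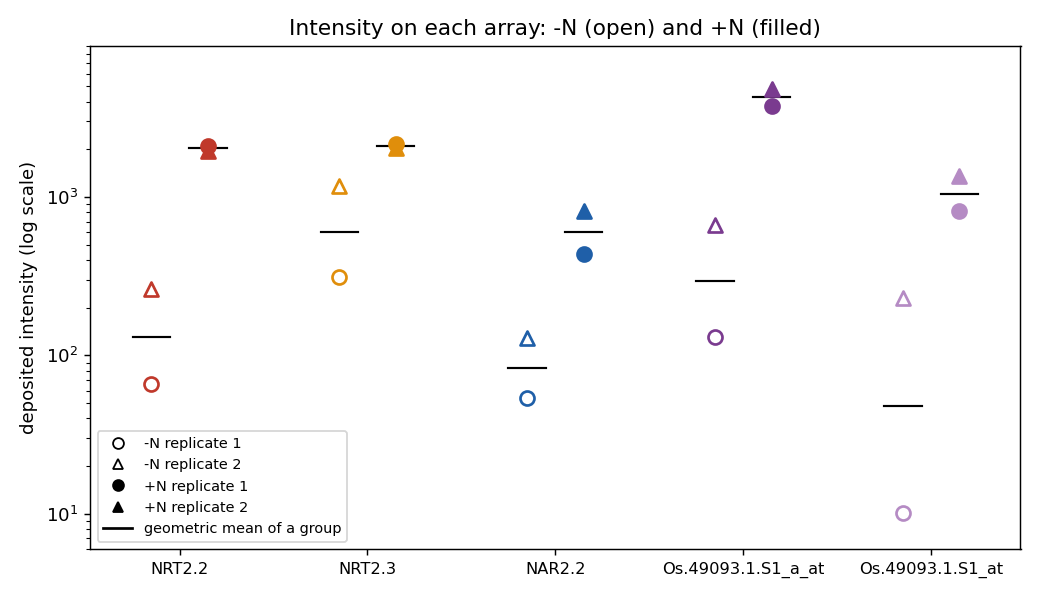
Deposited intensity, on a log axis, of the probe sets of *NRT2.2*, *NRT2.3* and *NAR2.2* and of 2 unnamed probe sets of the *NRT2.2* cluster. Open symbols are −N arrays, filled symbols +N arrays, circles replicate 1, triangles replicate 2, and bars the geometric mean of a group. In every probe set both +N arrays lie above both −N arrays, and the −N array of replicate 2 lies above that of replicate 1.

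*NAR2.2*, which encodes a partner protein of NRT2 transporters, was 53.9 and 128 on the −N arrays and 437 and 821 on the +N arrays of replicates 1 and 2. The groups did not overlap, and in each group the array of replicate 2 was the brighter one. The log2 mean was 6.38 ± 0.89 (SD, n = 2) in −N and 9.23 ± 0.64 (SD, n = 2) in +N. *NAR2.2* rose 7.20-fold, a log2 fold change of 2.85 ± 0.61 (SE, 95% interval from 1.01 to 4.68, unadjusted p = 0.0145 and adjusted p = 1 by limma), and ranked 32 among the increases. The replicates gave similar sizes, 8.11-fold in replicate 1 and 6.40-fold in replicate 2. The probe set Os.56184.1.S1_at carries no suffix for shared probes, and no other probe set has its cluster number.

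*NRT2.3* encodes another transporter of the family, known in rice to be spliced into a longer and a shorter form, of which the longer one acts in moving nitrate from root to shoot. Its probe set Os.29842.1.S1_x_at had intensities of 314 and 1169 in −N and of 2151 and 2053 in +N. The groups did not overlap, but on the log2 scale the −N array of replicate 2 was nearer to the +N arrays than to the other −N array. The log2 mean was 9.24 ± 1.34 (SD, n = 2) in −N and 11.04 ± 0.05 (SD, n = 2) in +N. The log2 fold change of 1.79 ± 0.75 (SE, 95% interval from -0.44 to 4.03, unadjusted p = 0.0858 by limma) did not pass, although it ranked 93 among the increases. *NRT2.3* was 6.86-fold higher in +N within replicate 1 and 1.76-fold higher within replicate 2. Whether the probe set reads the longer form, the shorter form or both is not stated in the sources used. With its suffix x it can also bind related transcripts.

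**Figure D2:**
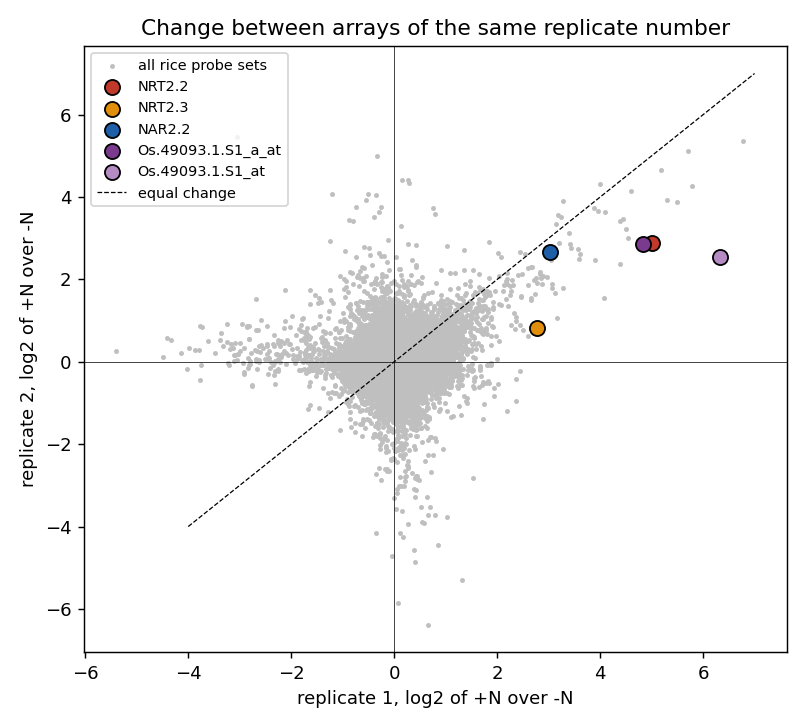
Log2 of +N over −N within replicate 1 (horizontal axis) and within replicate 2 (vertical axis) for all rice probe sets (grey) and for the probe sets of the uptake genes (coloured), with a dashed line of equal change. *NAR2.2* lies near the line at 3.02 and 2.68, while *NRT2.2*, with 2.90 on the vertical axis, and *NRT2.3*, at 2.78 and 0.81, lie below it.

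As a group, 2 of the 3 measured genes rose and 0 fell, against 0.465% and 0.014% of all probe sets. The median log2 fold change was 2.85, against -0.01 over all probe sets. Both +N arrays were above both −N arrays in 3 of 3 genes, which was the case for 7.23% of all probe sets. A difference of at least 2-fold in each replicate was seen for *NRT2.2* and *NAR2.2* and for 0.372% of all probe sets. *NAR2.2* was among the genes that the study selected on these arrays, so the counts are a description. The study also reports that its time course by quantitative RT-PCR in roots found *NAR2.2* strongly induced. An ordinary linear model with pooled variance called 0 of the 3 genes, and 0.299% of all probe sets rose by it. Its unadjusted p was 0.0585 for *NRT2.2*, 0.0665 for *NAR2.2* and 0.199 for *NRT2.3*. Without the +N array of replicate 2 also 0 of 3 passed in limma (unadjusted p = 0.0599 for *NRT2.2* and 0.0699 for *NAR2.2*), and without that of replicate 1 *NRT2.2* did not pass (unadjusted p = 0.0635), which left 1 of 3. In a fit without an array, the group with 1 array left is assumed to vary like the other group, whose 2 arrays alone give a probe set its own spread.

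The size of the change was compared between the members through the difference of their log2 values on each array, for 3 pairs. The log2 fold change of *NRT2.2* exceeded that of *NRT2.3* by 2.16, which was 2.23 in replicate 1 and 2.08 in replicate 2. This difference was thus nearly the same in both replicates, although each gene alone changed by very different amounts in them. The log2 fold change of *NRT2.2* exceeded that of *NAR2.2* by 1.10, but by 1.98 in replicate 1 and 0.22 in replicate 2. For *NRT2.3* it was lower than for *NAR2.2* in both replicates, with differences of -0.24 and -1.86 and a mean of -1.05. An exact two-sided permutation test over the 4 arrays gave p = 0.333 for each pair (adjusted p = 0.333 over 3 pairs), which is the smallest p that 2 arrays against 2 can give.

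The arrays of a group differed most in −N for *NRT2.2* and *NRT2.3*. The −N intensity of replicate 2 was 3.99-fold that of replicate 1 for *NRT2.2*, 3.73-fold for *NRT2.3* and 2.38-fold for *NAR2.2*, against a median of 1.28-fold over all probe sets. Ratios as large or larger were met in 0.537%, 0.687% and 4.98% of all probe sets. On the +N arrays the same ratio was 0.926 for *NRT2.2* and 0.955 for *NRT2.3*, below the median of 1.28-fold, and 1.88 for *NAR2.2*. *NRT2.2* and *NRT2.3* therefore shared a pattern of a large −N ratio and a +N ratio near 1, and *NAR2.2* had a ratio above 1 in both groups.

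Markers moved with the −N ratio. Of the root marker probe sets 7 of 13, and of the leaf marker probe sets 7 of 10, were at least 2-fold brighter on the −N array of replicate 2 than on that of replicate 1, against 10.9% of all probe sets. On the +N arrays this was the case for 0 of 13 and 0 of 10, against 7.12% of all probe sets. These are not counts of genes, since the 13 probe sets belong to 8 genes and the 10 to 3 genes. All 3 probe sets of *OsCASP1* and all 4 of the rubisco activase gene were among those at least 2-fold brighter in −N. *OsCASP1*, named for the proteins of the Casparian strip, had 49.2 and 236 on the −N arrays and 65.6 and 67.5 on the +N arrays in its probe set Os.32360.1.A1_at. *Lsi6*, another silicon transporter gene, had 377 and 1217 in −N and 398 and 496 in +N. *NAS1*, a nicotianamine synthase gene, was the 1 root marker probe set of 13 that rose, with 29.2 and 104 in −N and 253 and 332 in +N (5.26-fold, unadjusted p = 0.0402 from limma). Of the leaf marker probe sets 0 of 10 rose, and of all probe sets 0.465%. The rubisco activase gene had 289 and 1463 in −N and 776 and 728 in +N in its probe set Os.11573.2.A2_a_at. The summed intensity of the root markers was 8541 and 13654 in −N and 9968 and 11190 in +N, and that of the leaf markers was 13284 and 25260 in −N and 18991 and 21825 in +N. Without *Lsi1* and *CAB2R*, which are bright, the root markers summed to 1316 and 3785 in −N and 1911 and 2101 in +N, and the leaf markers to 1533 and 5889 in −N and 4341 and 3817 in +N. In replicate 1 both sums were thus higher in +N, and in replicate 2 both were lower. No marker was listed at 0, since the lowest deposited values of the lists lie near 4.10. The part of these differences in the results for *NRT2.2*, *NRT2.3* and *NAR2.2* was not tested.

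**Figure D3:**
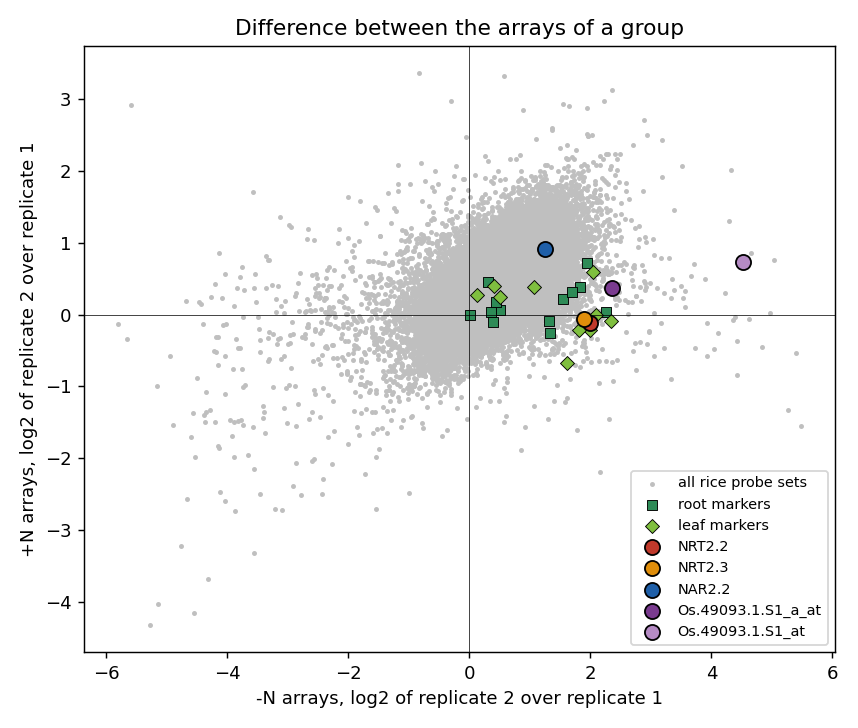
Log2 of replicate 2 over replicate 1 on the −N arrays (horizontal axis) and on the +N arrays (vertical axis) for all rice probe sets (grey), the root and leaf markers (green squares and diamonds) and the probe sets of the uptake genes (circles). *NRT2.2* and *NRT2.3* lie at 2.00 and 1.90 on the −N axis and near 0 on the +N axis, in the same area as several markers, and *NAR2.2* lies at 1.25 and 0.91.

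Leaving out the −N array of replicate 2 raised the log2 fold change of all 3 genes, to 4.95 for *NRT2.2*, 3.47 for *NAR2.2* and 2.74 for *NRT2.3*, and *NRT2.3* then passed (unadjusted p = 0.00296 from limma). For that p, limma combined the spread of the +N arrays, with a log2 SD of 0.05, with a variance drawn from all probe sets. The 3.73-fold difference of the −N arrays did not enter it. Without the −N array of replicate 1 they were 2.95 for *NRT2.2*, 2.22 for *NAR2.2* and 0.85 for *NRT2.3*. The direction was the same in both cases, which had to be so, since both +N arrays were above both −N arrays. These fits set arrays of unequal scale against each other. With the arrays brought to a common median, *NRT2.3* passed with all 4 arrays as well (log2 fold change 1.82, unadjusted p = 0.0146), so that 3 of 3 genes rose, against 0.586% of all probe sets. It passed as well with dim probe sets left out (unadjusted p = 0.0146, limma) and with trend and robust moderation (unadjusted p = 0.0310, limma). It did not pass with quantile normalization (unadjusted p = 0.0502, limma) or with an offset of 16 (0.0754). Nor did it pass with a block for the replicate number (unadjusted p = 0.0850, limma) or with pooled variance. Among the fits of probe sets it passed in 4 of 11 alternatives with a test. A fit of gene means, in which its single probe set kept its values, called it as well.

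The genes for the steps after uptake and for their regulators were taken from lists of names. For nitrate reduction the search by name found *NIA1*, which encodes a nitrate reductase. Other genes of nitrate and nitrite reduction that the study lists were not met by this search and were not analysed here. Its probe set Os.4717.1.S1_at had 60.5 and 159 in −N and 907 and 888 in +N, and it rose 9.14-fold (log2 fold change 3.19, standard error 0.56, unadjusted p = 0.00764 from limma). Replicate 2 was 2.63-fold replicate 1 in −N and 0.979-fold in +N. A dimmer probe set of *NIA1* had 14.8 and 28.0 in −N and 17.3 and 29.7 in +N, and its groups overlapped.

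Of 5 nitrate regulator genes found by name 1 rose and 0 fell, against 0.465% and 0.014% of all probe sets, with a median log2 fold change of 0.73. The search did not meet *LBD37* and *LBD38*, which the study reports as strongly induced by ammonium nitrate in roots. They were not analysed here, so the count does not stand for all regulators. *DOF1*, a zinc finger transcription factor gene, rose in both of its probe sets, with log2 fold changes of 1.22 (unadjusted p = 0.0165 from limma) and 1.52 (unadjusted p = 0.00908). The NLP factors are known in Arabidopsis to start the transcription of nitrate-induced genes. *NLP3* had 578 and 934 in −N and 1302 and 1563 in +N. Its groups did not overlap, but the change of 1.94-fold was under the 2-fold threshold (unadjusted p = 0.0493 from limma). The other NLP genes did not show this pattern, with log2 fold changes of -0.40 for *NLP1* (unadjusted p = 0.306 from limma) and -0.11 for *NLP2* (unadjusted p = 0.722), and overlapping groups in both. *NIGT1*, known as a gene of a nitrate-induced repressor, was dim, with 10.4 and 13.8 in −N and 16.3 and 24.4 in +N (log2 fold change 0.73, unadjusted p = 0.0889 from limma). Counted by the brighter probe set of each gene, 2 regulators rose when the −N array of replicate 2 was left out, against 0.949% of all probe sets, and 0 rose with pooled variance alone or without any 1 of the other 3 arrays. The dimmer probe set of *DOF1*, Os.4182.1.S1_at, still passed with pooled variance (unadjusted p = 0.0405) and without each array in turn in limma, except without the +N array of replicate 2 (unadjusted p = 0.0585).

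**Figure D4:**
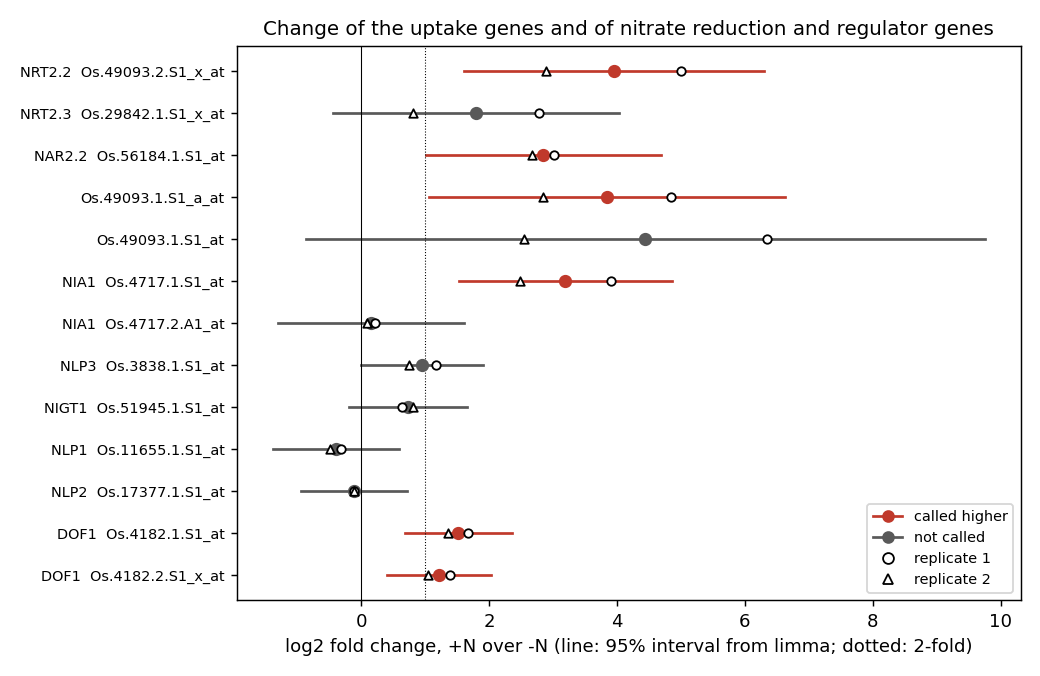
Log2 fold change of +N over −N from limma for the probe sets of the uptake genes, of *NIA1* and of the regulator genes, with 95% intervals (lines), the value of replicate 1 (open circle) and of replicate 2 (open triangle). Red marks probe sets that rose, grey those that did not pass, and the dotted line is a 2-fold change. Red are *NRT2.2*, Os.49093.1.S1_a_at, *NAR2.2*, the brighter probe set of *NIA1* and both probe sets of *DOF1*. The interval of *NRT2.3* runs from -0.44 to 4.03.

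The named genes whose pattern over the 4 arrays was most like that of each member were sought among 3195 probe sets, by the Euclidean distance between log2 values centred on their mean. For *NRT2.2* they were *DREB1A*, a transcription factor gene of cold and drought responses, at a distance of 0.757, *NIA1* at 0.871 and *FNR*, the gene of a ferredoxin reductase, at 1.18. *DREB1A* had 64.4 and 125 in −N and 1469 and 1171 in +N. For *NAR2.2* the nearest were the protein kinase gene *CIPK14* at 0.602, *FNR* at 0.606 and *ADF-5*, the gene of an actin-depolymerizing factor, at 0.650. *CIPK14* had 94.8 and 166 in −N and 577 and 801 in +N, so that like *NAR2.2* it was brighter in replicate 2 in both groups. For *NRT2.3* the nearest was *NAS2*, a nicotianamine synthase gene of iron transport, at 0.205, with 28.6 and 96.8 in −N and 199 and 160 in +N. It was followed by the ammonium transporter gene *AMT1-2*, also named *OsAMT1;2*, at 0.307, with 264 and 768 in −N and 1507 and 1321 in +N, and by *ABA8OX1*, a gene of abscisic acid breakdown, at 0.392. All 3 neighbours of *NRT2.3* had a −N array of replicate 2 well above that of replicate 1, and like *NRT2.3* they did not pass (unadjusted p of 0.0780, 0.0661 and 0.0502 from limma). The neighbours were chosen by these same values. Such likenesses, also that of *CIPK14* to *NAR2.2*, follow from the choice and are no separate result. The distance between *NRT2.2* and *NRT2.3* themselves was 2.16, that between *NRT2.2* and *NAR2.2* 1.42 and that between *NRT2.3* and *NAR2.2* 1.34, whereas Os.49093.1.S1_a_at lay at 0.438 from *NRT2.2*. Arrays of the same group and of the same replicate number enter all of these distances, and with 4 arrays they describe these samples only.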

How the data were processed

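Total RNA of rice roots was labelled with biotin and hybridized to 4 Affymetrix Rice Genome Arrays, 2 for each group. The authors deposited 1 intensity per probe set and array on a linear scale. The submitters' processing notes list GCOS and RMA, with no version, and how the arrays were normalized is not given. Of 57381 probe sets, 187 controls were left out. A floor was set at the 5th percentile of the whole table (an intensity of 5.16, which raised between 3.59% and 6.92% of an array), log2 was taken, and group alone was fitted with limma 3.58.1 in R 4.3.3. Calls needed a 2-fold change and an unadjusted p under 0.05. Genes were named through the platform annotation and a RefSeq gene table (ASM3414082v1), which served for names and gene order only and held all 17905 genes. For the lists, a gene with several probe sets is counted by the one with the highest mean.

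The named genes are the 3 members, probe sets that share a cluster number with them, genes of the lists for nitrate transport, reduction and regulation, and for each member the 3 nearest named genes. Members and lists were chosen with earlier results of these data known. Alternatives were median centring, quantile normalization, an offset of 16, a filter on dim probe sets, trend and robust moderation, pooled variance, a block for the replicate number, leaving out arrays, other fold thresholds, adjusted p and, for the lists, averaging a gene's probe sets. Scaling was done before the floor. The fit was run on simulated data, with less noise than the arrays, to check that it returned the planted changes. This does not test the p-values under the spread of these arrays. The number of arrays limits the precision. Figures were drawn with matplotlib 3.10.9. No sequences were used here.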

Additional observations from a re-analysis of the deposited data

How the results depend on the processing

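*NRT2.2*, *NRT2.3* and *NAR2.2* were higher in +N in each of 15 alternatives computed for each gene. Much of this was fixed in advance. Both +N arrays were above both −N arrays in each gene, so dropping an array without scaling could not reverse a direction. The dim filter, trend and robust moderation, pooled variance and the block kept the log2 fold change of the reported fit. Adjustment over all 57194 probe sets ended every call of that fit (adjusted p = 1). With pooled variance, neither *NRT2.2* (log2 fold change 3.95) nor *NAR2.2* (2.85) was called. *NRT2.2* also lost its call when the +N array of replicate 1 (3.89) or that of replicate 2 (4.01) was dropped. *NAR2.2* lost its call when the +N array of replicate 2 was dropped (2.39). *NRT2.3* (1.79) became called after median centring (1.82), with dim probe sets left out (1.79) and with trend and robust moderation (1.79). A fit of gene means called it as well. Each uptake gene has a single probe set, so averaging changed none of their values and only the moderation differed. Leaving out each array gave log2 fold changes from 2.95 to 4.95 for *NRT2.2*, 0.85 to 2.74 for *NRT2.3* and 2.22 to 3.47 for *NAR2.2*, and after median centring, chosen after seeing the data and without a test, from 3.23 to 4.72, 1.12 to 2.51 and 2.50 to 3.24. The dim probe set of *NIA1* reversed to -0.31 without the −N array of replicate 1 and to -0.24 without the +N array of replicate 2, with 0.61 at the other end of its range, and *NLP2* ranged from -0.33 to 0.11. The uptake genes that rose numbered 2, or 3 after median centring, with dim probe sets left out, with trend and robust moderation and in a fit of gene means, 0 with pooled variance and 0 to 3 without an array, and the regulators, counted by the brighter probe set of a gene, 1, or 0 with pooled variance and 0 to 2 without an array. The dimmer probe set of *DOF1* (1.52) passed with pooled variance and in 3 of the 4 fits without an array.

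Over all probe sets 266 (0.465%) rose and 8 (0.014%) fell. Pooled variance gave 171 and 0, a 1.5-fold threshold 517 and 56, a 3-fold threshold 110 and 0, and adjustment 0 and 0. Decreases numbered 20 after median centring, 14 after quantile normalization, 3 with the offset, 18 without dim probe sets and 15 with the block. Leaving out each array gave 159 to 543 increases and 5 to 413 decreases. The causes were not tested. With the replicate number as a block, the unadjusted p was 0.0179 for *NRT2.2*, 0.0850 for *NRT2.3* and 0.000871 for *NAR2.2*, and 294 probe sets rose. The deviations of arrays of the same number from their group means correlated at 0.56 over probe sets, with 2 pairs only, and nothing in the labels says that the numbers pair the samples. The block changed none of the calls of the members. With dim probe sets left out, 18 of 28597 probe sets passed after adjustment in limma, and *NRT2.2* (adjusted p = 0.125) and *NAR2.2* (adjusted p = 0.258) were not among them. Detection calls were not used here, and the −N value of 10.1 of the dim probe set beside *NRT2.2* limits how well its fold is known.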
